A study of Mus musculus with 12 samples.

Results

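Mouse embryonic stem (ES) cells of the B6J genotype were compared with ES cells of the 129 genotype in the solvent control of the study. The comparison rests on 6 of the 12 libraries of the series, chosen by their labels: 3 of 129 and 3 of B6J, all labelled male, grown in serum with LIF (leukaemia inhibitory factor), and given DMSO daily until day 5. The other 6 libraries are of the same genotypes given 1 µM of a MEK inhibitor in place of plain solvent. They give a second measurement of the difference between the strains. All 12 libraries were fitted together, so the inhibitor libraries also enter the filter, the scaling and the estimate of spread behind the DMSO test. B6J is read as C57BL/6J. The labels name no clone, so strain and cell line cannot be told apart here. Nor do they say whether replicates were separate cultures. The p-values therefore measure the spread among the 3 libraries of each of the 4 groups, which may be of technical origin.

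ES cells are derived from the inner cell mass of the blastocyst and keep its pluripotency in culture. Cells of 129 mice were the classical source of ES lines, whereas lines from C57BL/6 mice have long been known to be harder to maintain in serum and LIF, a medium in which pluripotent cells vary between a naive state and states closer to differentiation. In such cultures small fractions of cells pass through a state resembling the 2-cell embryo or turn toward primitive endoderm, the extra-embryonic layer that lines the yolk cavity. MEK and its substrate ERK carry the FGF signal that drives cells out of the naive state.

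Values are CPM, read counts scaled to a library total adjusted by TMM, given for replicates 1, 2 and 3 in that order, and a log2 difference is B6J minus 129 (positive where B6J was higher). A gene was called at an adjusted p under 0.05 by edgeR's quasi-likelihood test with Benjamini-Hochberg adjustment over 16627 tested genes, and every adjusted p below is from that test. Library totals ran from 62634533 to 73031809 counts in 129 and from 74164171 to 82505523 in B6J. The libraries carried the RNA of pluripotent cells: Pou5f1, the POU factor that defines them, was at 660, 804 and 835 CPM in 129 and 855, 750 and 714 CPM in B6J, and Sox2, its partner, at 169, 222 and 230 CPM in 129 and 232, 219 and 197 CPM in B6J. Replicate 1 stood apart in each strain. It differed by at least 2-fold from the other libraries of 129 in 714 and 726 genes, where those libraries differed from each other in 1, and from the other libraries of B6J in 432 and 391 genes, where those differed in 2. Strain made up the first principal component of the 6 libraries (59.8% of the variance) and replicate 1 of 129 the second (21.7%). That library held RNA of primitive endoderm: the summed level of the 23 tested markers was 16390 CPM, against 2458 and 2486 CPM in the other 129 libraries and 3224 to 3400 CPM in B6J. Many results that rest on it are given with and without it.

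Between the strains 3468 genes differed (20.9% of those tested). Of these 1722 were higher in B6J (10.4%) and 1746 lower (10.5%). Counts for gene lists below are to be read beside these shares. The lists and their members were chosen with earlier results of these data known. A list's share above those of all tested genes is therefore a description and not a test. Differences of at least 1 log2 unit (1392 genes, 8.37%) leaned to lower levels in B6J, with 878 genes lower (5.28%) and 514 higher (3.09%). Without replicate 1 of 129, 4056 of 16987 genes were called (23.9%), and 2997 of the original calls (86.4%) were among them. The libraries of the strains did not overlap for 6141 genes (36.9%). The median log2 difference of all tested genes was -0.01. The extremes were genes with no detectable RNA in 1 strain, such as Gbp2b, a guanylate-binding protein of the interferon response, and Ubd, a ubiquitin-like modifier.

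**Figure D1:**
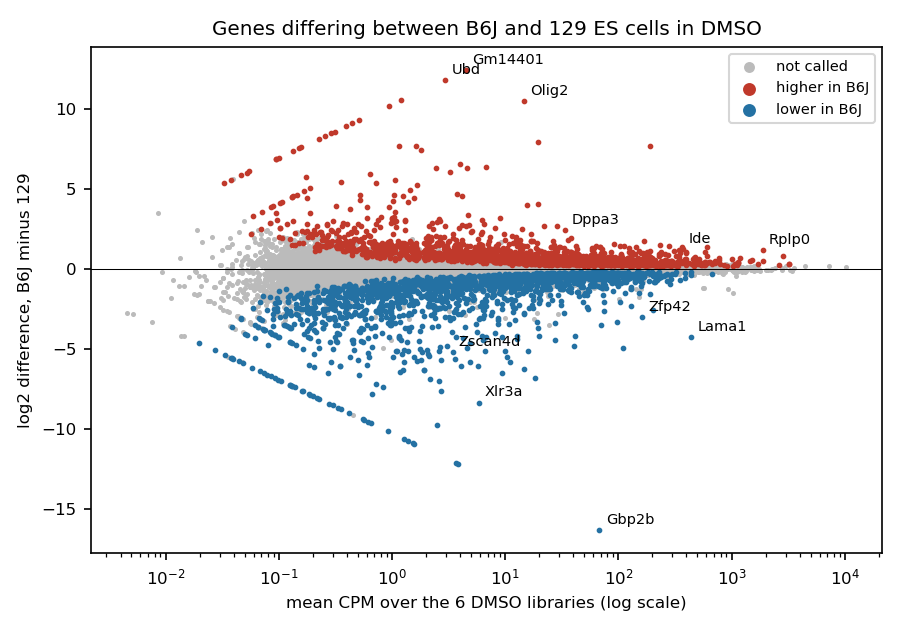
Log2 difference between B6J and 129 (vertical axis) against mean CPM over the 6 DMSO libraries (horizontal, log scale), 1 point per tested gene; red and blue mark the 1722 genes called higher and the 1746 called lower in B6J. Gbp2b lies alone at the bottom, and the oblique rows of points at the left are genes with 0 counts in a strain, whose fitted log2 values are not bounds.

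Several genes were switched between the strains in their counts. The build named for the counts, GRCm38, is the C57BL/6J reference, so 129 reads that differ from it may be undercounted or given to a copy. Its part in these and the later differences was not tested. Gbp2b (chr3:142594847-142619179, plus strand) was at 91.2, 161 and 156 CPM in the 129 libraries and had 0 counts in all 3 libraries of B6J. Against a floor of 3 counts over the B6J libraries, which covers counting error only, it was at least 10700-fold lower in B6J (adjusted p = 0.000224). Wdr64, a WD-repeat gene, was at 2.58, 2.66 and 3.11 CPM in 129 and at 0 in B6J, at least 219-fold lower. Cysltr2, a leukotriene receptor, was at 1.96, 2.91 and 2.78 CPM in 129 against 0, at least 201-fold lower. Arhgef38, a nucleotide exchange factor, was at least 146-fold lower by the same floor. In the other direction Ubd had 0 counts in 129 and was at 6.19, 5.4 and 6.08 CPM in B6J, at least 409-fold higher. Gm14401, a zinc finger gene, had 0 counts in 129 and was at 5.11, 11.5 and 10.4 CPM in B6J, at least 625-fold higher. Flg, which encodes the skin barrier protein filaggrin, had 0 counts in 129 and was at 1.74, 1.86 and 2.08 CPM in B6J, at least 131-fold higher. Each of these genes was on in every library of 1 strain, replicate 1 included. In the inhibitor libraries Gbp2b and Flg again had 0 counts in the strain that lacked them, and Gbp2b was at 1.41, 8.27 and 10.1 CPM in 129 there, below its DMSO levels. Wdr64, Cysltr2, Arhgef38, Ubd and Gm14401 were detected there in 1 or 2 libraries of that strain, the highest value being 0.0380 CPM, for Wdr64.

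Olig2 and Olig1, neighbouring basic helix-loop-helix factors of the oligodendrocyte and motor neuron lineages on chromosome 16, were expressed in B6J ES cells and nearly silent in 129. Olig2 was at 0, 0.028 and 0.0312 CPM in 129 and 34.1, 28.7 and 25.7 CPM in B6J (log2 difference 10.47, SE 0.44, adjusted p = 5.74e-08). Olig1 was at 0.0823, 0.154 and 0.25 CPM in 129 and 43.9, 37.5 and 35.2 CPM in B6J (log2 difference 7.92, SE 0.29, adjusted p = 1.61e-08). Of 24 tested neuroectoderm genes 5 were higher and 2 lower in B6J (29.2% called, against 20.9% of all tested genes), with a median of 0.34. Sox1, the earliest neural SoxB factor, was at 0.247, 1.9 and 1.69 CPM in 129 and 5.94, 5.85 and 5.36 CPM in B6J (2.16; the call was lost in a fit of the 6 DMSO libraries alone). Pax7, a dorsal neural and muscle factor, was at 1.34, 0.392 and 0.312 CPM in 129 and 0.0503, 0.0481 and 0.054 CPM in B6J (-3.71). For Pax7 the value was -2.76 without replicate 1 of 129, and its call was lost with both replicates 1 left out. Nes, the intermediate filament nestin, was at 253, 250 and 240 CPM in 129 and 161, 173 and 189 CPM in B6J (-0.51), lower in B6J.

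The other large rises belonged to genes of unlike function. Serpina3m, a serine protease inhibitor, was at 0.137, 0.056 and 0.0468 CPM in 129 and 7.06, 8.7 and 7.8 CPM in B6J (log2 difference 6.57, SE 0.38, adjusted p = 5.39e-07; 7.21 without replicate 1 of 129). Apoa2, an apolipoprotein of high-density lipoprotein, was at 0.0961, 0.168 and 0.218 CPM in 129 and 13.9, 12.99 and 13.02 CPM in B6J, and Pnp2, a purine nucleoside phosphorylase with a close paralog, at 0.0961, 0.112 and 0.078 CPM in 129 and 7.51, 6.16 and 5.52 CPM in B6J. Their log2 differences were 6.37 and 6.04. Nod1, a cytosolic sensor of bacterial peptidoglycan, was at 3.02, 2.0 and 1.65 CPM in 129 and 37.3, 36.4 and 36.4 CPM in B6J (log2 difference 4.04, SE 0.22, adjusted p = 3.5e-07). Nlrp4f, an oocyte NLR gene, was at 1.5, 2.23 and 1.84 CPM in 129 and 30.2, 29.5 and 28.2 CPM in B6J (3.98). Glyatl3, an acyltransferase gene, differed by 4.59, Csn3, which encodes kappa-casein, by 3.07, and Ndufs5, a complex I subunit whose processed copies can take its reads, by 2.79. The strains did not overlap for any of these genes, as the rule for naming them required. Gm42047, a long intergenic RNA named here after its values were seen (chr8:121833247-121841178, plus strand), was at 2.87, 1.27 and 1.45 CPM in 129 and 360, 372 and 404 CPM in B6J (log2 difference 7.66, SE 0.28, adjusted p = 1.65e-08).

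**Figure D2:**
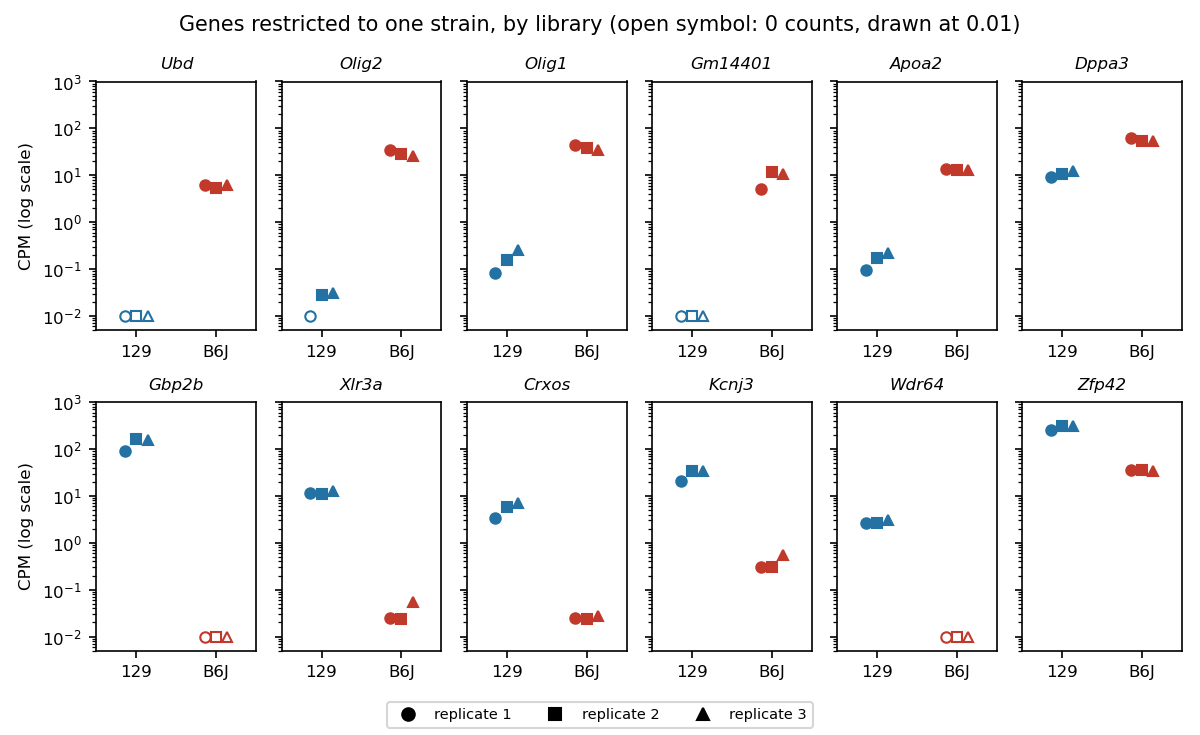
CPM (log scale) in each DMSO library for 12 genes; blue is 129, red is B6J, symbols give the replicate, and an open symbol marks 0 counts, drawn at 0.01 CPM. In the upper row every B6J library lies above every 129 library, and in the lower row every B6J library lies below, with Gbp2b and Wdr64 at 0 counts in all 3.

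Among genes lower in B6J, Xlr3a, Crxos and Kcnj3 differed in every library. Crxos, a homeobox gene, was at 3.38, 5.67 and 7.18 CPM in 129 and 0.0252, 0.0241 and 0.027 CPM in B6J (log2 difference -7.65, SE 0.37, adjusted p = 1.49e-07). Kcnj3, an inwardly rectifying potassium channel, was at 20.4, 33.9 and 33.5 CPM in 129 and 0.302, 0.301 and 0.54 CPM in B6J (log2 difference -6.27, SE 0.29, adjusted p = 1.19e-07). Cer1, a secreted antagonist of Nodal and BMP, was at 3.84, 6.15 and 5.99 CPM in 129 and 0.0252, 0.0481 and 0.243 CPM in B6J (log2 difference -5.67, SE 0.63, adjusted p = 7.93e-05; -7.11 without replicate 3 of B6J). In contrast, 7 of the 12 largest falls, genes with provisional names and pseudogenes left out, were high in replicate 1 of 129 alone. Ugt2b34, a glucuronosyltransferase, was at 22.5, 0.056 and 0.218 CPM in 129 and had 0 counts in B6J, and S100g, a calcium-binding protein, was at 21.7, 0.056 and 0.25 CPM and likewise had 0; at least 600-fold and 578-fold lower over the group, these bounds come from that library. Srgn, the proteoglycan serglycin, was at 107, 1.4 and 1.4 CPM in 129 and 0.264, 0.409 and 0.27 CPM in B6J (-6.85, and -2.14 without that library). Klb, the FGF co-receptor beta-Klotho, went from -6.08 to -2.11 on leaving it out, and Sox17, an endoderm factor, from -5.63 to -2.17. The log2 difference of Pla2g12b, a phospholipase, went from -7.03 to -1.73 and that of Nxf7, an RNA export factor, from -5.85 to -1.58. Without that library S100g, Pla2g12b, Nxf7 and Sox17 were not called, and Ugt2b34, Srgn and Klb were. Leaving out any single B6J library also ended the calls of Ugt2b34, S100g, Pla2g12b (-6.60 to -7.33), Srgn (-6.73 to -7.09) and Nxf7 (-5.71 to -5.93), and leaving out replicate 2 or 3 of B6J that of Sox17 (-5.63 and -5.25). Limma-voom called none of the 7. Of the 1746 genes lower in B6J, 66 had replicate 1 of 129 at 3 times the other 129 libraries or more.

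Some processed copies of housekeeping genes moved against their parents, and since such pairs share sequence, how the counting divided their reads is uncertain; these genes were chosen after their values were seen. Eno1b, a copy of the enolase gene Eno1, was at 198, 221 and 225 CPM in 129 and 6.51, 7.11 and 7.23 CPM in B6J (-4.95). Eno1 itself was at 1147, 1237 and 1231 CPM in 129 and 1891, 1631 and 1647 CPM in B6J (0.52). Hmga1b, a copy of the chromatin protein gene Hmga1, was at 110, 141 and 139 CPM in 129 and 12.5, 11.1 and 10.2 CPM in B6J (-3.53). Hmga1 was at 179, 206 and 223 CPM in 129 and 580, 510 and 476 CPM in B6J (1.36). Pcna-ps2, a pseudogene of the sliding clamp gene Pcna, was at 49.6, 51.6 and 58.4 CPM in 129 and 2.44, 2.35 and 2.4 CPM in B6J (-4.47). All 3 copies were lower in B6J without overlap, and the parents were higher, Pcna by 0.25, a call that ended without replicate 1 of B6J (0.21) or replicate 2 of 129 (0.25).

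Called genes formed runs along the chromosomes. A run is here a series of neighbouring tested genes all called in the same direction, and the longest held 16 genes on chromosome 2, chr2:176708328-178034022 (GRCm38), every one higher in B6J. It consisted of zinc finger genes named Gm144xx or Gm143xx together with Zfp970, Zfp971 and Zfp972, near-identical family members whose reads may be split. Zfp970 was at 0.0549, 0.168 and 0.078 CPM in 129 and 1.01, 2.71 and 2.16 CPM in B6J (4.26; 4.86 without replicate 2 of 129). The lowest log2 difference of the run was 2.98, and 4 of its genes, Gm14401 among them, had 0 counts in 129. Zfp971 was at 0.192, 0.196 and 0.0936 CPM in 129 and 0.592, 2.9 and 2.4 CPM in B6J (3.59; the call was lost with limma-voom). Zfp972 was at 0, 0.056 and 0.0624 CPM in 129 and 1.03, 0.938 and 1.03 CPM in B6J (4.63; 4.04 without replicate 1 of 129). All 16 were called in the same direction in the inhibitor libraries. The next was the Zscan4 cluster on chromosome 7, chr7:10900740-11614112, with 8 genes lower in B6J, none of which was called in the inhibitor. A run of 7 genes higher in B6J, chr7:45617289-45694556, held the fucosyltransferases Fut1, Fut2 and Sec1. Fut2, which makes the secretor blood group antigen, was at 0.178, 0.266 and 0.296 CPM in 129 and 2.29, 1.73 and 1.79 CPM in B6J (2.97), and Fut1 differed by 1.59.

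Runs of 6 genes lay at the Meg3 to Dio3 imprinted region of chromosome 12, chr12:109493529-110281097, lower in B6J, at the Xlr cluster of the X, chrX:73074345-73292976, lower in B6J, and at chr13:119335448-119654359, higher in B6J. The last ends at Ccl28, a mucosal chemokine at 0.0823, 0.112 and 0 CPM in 129 and 0.529, 0.505 and 0.594 CPM in B6J (3.0; 3.60 without replicate 2 of 129). It also holds Paip1, a translation factor, which was at 61.1, 58.6 and 57.6 CPM in 129 and 89.1, 94.4 and 97.9 CPM in B6J (0.67). Its first gene, Nnt, had a mean of 0.648 CPM in 129 and 1.06 CPM in B6J (0.71, adjusted p = 0.0464). Nnt was not called in the inhibitor libraries (0.55). On chromosome 3, chr3:93273523-93465359, 5 genes of the epidermal differentiation complex were higher in B6J. Besides Flg, these included the related barrier genes Hrnr and Rptn, both at 0 counts in 129 and at 0.302, 1.28 and 1.09 CPM and 0.189, 0.373 and 0.391 CPM in B6J, and the trichohyalin gene Tchh at 0.796, 0.924 and 0.78 CPM in 129 and 7.25, 9.32 and 8.93 CPM in B6J (log2 difference 3.35, SE 0.21, adjusted p = 8.77e-07). On chromosome 16 a run of 5 lower genes, chr16:30955144-31458901, held Apod, a lipocalin, at 9.5, 11.6 and 11.4 CPM in 129 and 1.08, 1.49 and 1.27 CPM in B6J (-3.08), and Bdh1, a ketone body dehydrogenase (-1.09). In all 2302 of the called genes stood alone and 357 runs were pairs.

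On the scale of whole chromosomes, 11 and X stood below the other autosomes in B6J. Chromosome 11 had a median log2 difference of -0.13 over 1345 tested genes, with 71 higher and 199 lower, and 22 of its 23 windows of 60 tested genes had a median below 0. The X had a median of -0.11 over 592 genes, with 32 higher and 95 lower, and all 10 of its windows were below 0. Of these 95 genes 44 lay in a pair of adjoining windows, from 41.8 to 73.8 Mb, with medians of -0.43 and -0.36, and the other 8 windows had medians from -0.03 to -0.13. The other autosomes had medians from -0.06 to 0.05. In the inhibitor libraries, which share no sample with these, the medians were -0.09 and -0.05, and that of chromosome 6, at -0.06, lay below the X. Leaving out replicate 1 of B6J took the median of the X to -0.06.

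Of the naive pluripotency genes, 3 of 20 were higher and 7 lower in B6J, while the core factors Pou5f1 and Sox2 overlapped between the strains. The list had a median of -0.10 (-0.26, with 3 higher and 9 lower, without replicate 1 of 129). Zfp42 (Rex1), a zinc finger marker of naive cells, was at 251, 303 and 313 CPM in 129 and 36.02, 36.4 and 34.8 CPM in B6J (log2 difference -3.02, SE 0.11, adjusted p = 1.29e-08). Dppa3 (Stella), a maternal factor that limits the maintenance of DNA methylation, was at 8.99, 10.6 and 12.4 CPM in 129 and 63.6, 54.01 and 54.2 CPM in B6J (log2 difference 2.43, SE 0.14, adjusted p = 5.39e-07). These 2 markers of the naive state thus lay in opposite directions. Fbxo15, an Oct4 target, was at 149, 190 and 212 CPM in 129 and 85.3, 71.2 and 69.6 CPM in B6J (-1.29). The T-box factor Tbx3 was at 72.95, 86.3 and 88.9 CPM in 129 and 43.96, 41.2 and 38.7 CPM in B6J (-1.0). Nr5a2, a nuclear receptor that activates Pou5f1, differed by -0.87, Tcl1, an AKT coactivator, by -0.87, and the naive transcription factors Tfcp2l1 and Klf2 by -0.68 and -0.65. Dppa4, a developmental pluripotency factor, was higher in B6J (0.53), as was Dppa5a (0.57), whose call ended without replicate 1 of B6J (0.40).

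Nanog, the homeodomain factor of naive pluripotency, was at 303, 509 and 548 CPM in 129 and 410, 351 and 348 CPM in B6J and was not called (adjusted p = 0.272). Its replicate 1 of 129 lay below every B6J library and its other 129 replicates lay above them all. Without that library the log2 difference of Nanog was -0.51 and that of Prdm14, a repressor of the de novo methyltransferases, -0.62, and both were then called. Esrrb (-0.003) and Klf4 (0.14), 2 further naive factors, were not called. Esrrb was called lower (-0.32) with both DMSO libraries numbered 1 left out, and Klf4 higher (0.17) with a fibroblast score as covariate.

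Core pluripotency genes leaned to B6J, with 7 of 15 higher and 1 lower and a median of 0.20. Epcam, an epithelial adhesion molecule of ES cells, was at 151, 190 and 192 CPM in 129 and 374, 318 and 332 CPM in B6J (log2 difference 0.94, SE 0.10, adjusted p = 4.53e-05). Fgf4, the ligand through which ES cells activate ERK in themselves, was at 88.03, 93.9 and 100 CPM in 129 and 205, 150 and 143 CPM in B6J (log2 difference 0.82, SE 0.12, adjusted p = 0.000518). Utf1, a chromatin factor, differed by 0.79, E-cadherin (Cdh1) by 0.46 and the let-7 inhibitor Lin28a by 0.28. Tdgf1, the Nodal co-receptor Cripto, was at 414, 676 and 709 CPM in 129 and 1030, 903 and 936 CPM in B6J (0.67), and its call was lost only in the fit of the 6 DMSO libraries alone.

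Formative and primed markers did not move together, with 4 of 23 higher and 5 lower and a median of -0.01. Without replicate 1 of 129, 5 were higher and 7 lower, with a median of -0.19. Otx2, which leads the exit from the naive state, was at 34.2, 25.01 and 25.8 CPM in 129 and 8.22, 7.25 and 6.21 CPM in B6J (log2 difference -1.97, SE 0.15, adjusted p = 4.5e-06). Fgf5, a marker of primed epiblast, was at 46.6, 37.7 and 39.01 CPM in 129 and 7.82, 10.9 and 12.9 CPM in B6J (log2 difference -1.96, SE 0.27, adjusted p = 0.00045). Foxa2, an endoderm and node factor, was at 22.01, 6.46 and 7.74 CPM in 129 and 0.68, 0.529 and 0.459 CPM in B6J (-4.44; -3.67 without replicate 1 of 129). Cdh2 (N-cadherin) was lower (-0.85) and Etv4, an ETS factor induced by ERK, higher (0.79). The lower members were thus lower in each B6J library than in any 129 library.

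DNA methylation is written by Dnmt3a and Dnmt3b with the inactive partner Dnmt3l, kept by Dnmt1 with Uhrf1, and removed through the TET oxidases and base excision by Tdg. Of 15 tested writers and maintenance genes 5 were higher and 1 lower in B6J, with a median of 0.14. Dnmt3a was at 127, 184 and 181 CPM in 129 and 363, 303 and 281 CPM in B6J (log2 difference 0.95, SE 0.16, adjusted p = 0.0016). Dnmt3l was at 204, 134 and 141 CPM in 129 and 332, 282 and 283 CPM in B6J (log2 difference 0.904, SE 0.17, adjusted p = 0.00308). Ahcy, which clears the by-product of methyl transfer, was at 70.03, 83.02 and 84.2 CPM in 129 and 181, 159 and 162 CPM in B6J (log2 difference 1.08, SE 0.08, adjusted p = 3.93e-06). Pcna and Cdca7, a chromatin factor of the S phase, were the other higher members, and leaving out replicate 1 of B6J ended the call of Cdca7 (0.37, then 0.28). Uhrf2, the paralog of Uhrf1, was lower (79.7, 82.9 and 80.6 CPM in 129, 52.6, 54.8 and 56.3 CPM in B6J, -0.57). Dnmt3b (0.23, adjusted p = 0.13), Uhrf1 (0.19, adjusted p = 0.111) and Dnmt1 (0.09, adjusted p = 0.464) were not called. With a fibroblast score as covariate Dnmt3b (0.28, adjusted p = 0.0465) and Uhrf1 (0.23, adjusted p = 0.0236) were called higher.

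Of 17 demethylation genes 4 were higher and 1 lower, with a median of 0.04. Tdg was at 22.5, 22.7 and 23.8 CPM in 129 and 65.2, 57.5 and 61.5 CPM in B6J (log2 difference 1.42, SE 0.08, adjusted p = 3.52e-07). Gadd45a, a stress-induced adaptor of repair-based demethylation, was at 25.1, 25.01 and 24.8 CPM in 129 and 51.95, 52.7 and 50.6 CPM in B6J (log2 difference 1.05, SE 0.12, adjusted p = 7.89e-05). Apex1, the endonuclease of base excision repair, was higher (0.33) and the glycosylase Smug1 lower (-0.31), fragile calls: that of Apex1 ended without replicate 2 of 129 (0.31) or replicate 1 of B6J (0.27), and that of Smug1 without replicate 3 of 129 (-0.29) or replicate 2 or 3 of B6J (-0.27 and -0.29). The oxidases Tet1 and Tet2 overlapped between strains, Tet1 at 518, 661 and 649 CPM in 129 and 464, 616 and 609 CPM in B6J. Among genes of imprint protection and KRAB silencing, which count Dppa3, 3 of 19 were higher and 0 lower (15.8% called, against 20.9% of all tested genes). The higher members included the H3K9 methyltransferase Setdb1 at 155, 164 and 169 CPM in 129 and 216, 209 and 212 CPM in B6J (log2 difference 0.38, SE 0.07, adjusted p = 0.00188). The imprint guardian Zfp57 (0.09) and its corepressor Trim28 (-0.12) were not called; Trim28 was called lower (-0.24) with both replicates 1 left out.

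Of 60 imprinted genes 6 were higher and 12 lower in B6J, with a median of -0.01. The maternally expressed RNAs of the Dlk1-Dio3 region were low in B6J: Meg3 was at 189, 245 and 210 CPM in 129 and 27.1, 60.2 and 40.1 CPM in B6J (log2 difference -2.34, SE 0.26, adjusted p = 8e-05). Mirg, a microRNA host transcript, was at 24.8, 27.04 and 25.6 CPM in 129 and 3.8, 4.67 and 2.97 CPM in B6J (log2 difference -2.76, SE 0.17, adjusted p = 6.96e-07). Rtl1, a retrotransposon-like gene of the same region that is expressed from the paternal allele, was at 1.72, 2.16 and 2.73 CPM in 129 and 0.239, 0.337 and 0.31 CPM in B6J (-2.89). Dio3, a thyroid hormone deiodinase, was at 3.4, 3.33 and 3.78 CPM in 129 and 1.74, 1.44 and 1.48 CPM in B6J (-1.17). Meg3 and Mirg of the maternal class and Rtl1 of the paternal class were therefore lower there. Dlk1, of the same region, is not described here. Elsewhere Snrpn, of the Prader-Willi region, was at 127, 138 and 142 CPM in 129 and 80.1, 68.7 and 72.6 CPM in B6J (-0.88), with Magel2 of that region at -0.85. Grb10, a growth inhibitor, was at 325, 372 and 375 CPM in 129 and 597, 585 and 614 CPM in B6J (0.74). The growth factor Igf2 was at 4.28, 2.62 and 2.76 CPM in 129 and 6.8, 5.16 and 7.23 CPM in B6J (0.99). Both were higher in B6J. Impact (-0.58) was lower and Mest (0.41) higher.

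Germline genes that DNA methylation silences in somatic cells were lower in B6J in 22 of 50 cases and higher in 7, with a median of -0.67 (-0.83 without replicate 1 of 129). The lower members were led by the X-linked lymphocyte-regulated genes, which this list shares with a list of X-linked clusters (12 tested genes in both). Xlr3a, a nuclear protein of meiotic chromosomes, was at 11.6, 10.8 and 12.7 CPM in 129 and 0.0252, 0.0241 and 0.054 CPM in B6J (log2 difference -8.36, SE 0.42, adjusted p = 2.16e-07). Xlr3b was at 4.34, 4.28 and 3.56 CPM in 129 and 0.0252, 0.193 and 0.0809 CPM in B6J (-5.31; -6.23 without replicate 2 of B6J). Xlr5a had 0 counts in B6J and 1.95, 0.7001 and 1.01 CPM in 129, at least 96.3-fold lower. Of the 19 tested X-linked cluster genes 14 were lower and 2 higher; the higher were the homeobox genes Rhox6 and Rhox9. The call of Rhox6 (0.65) ended without replicate 2 of 129 (0.64) or replicate 1 (0.54) or 3 (0.63) of B6J. It was also lost with limma-voom and in a fit of the 6 DMSO libraries alone. Family members share sequence, and reads may have been split between them. Beyond the X, the meiotic cohesin Stag3 was at 28.3, 36.4 and 36.8 CPM in 129 and 15.2, 13.6 and 13.5 CPM in B6J (log2 difference -1.26, SE 0.16, adjusted p = 0.000251). Tuba3a, a testis tubulin, was at 11.4, 21.6 and 23.3 CPM in 129 and 5.25, 3.39 and 3.41 CPM in B6J (-2.22). Among the 7 higher members were 3 genes of the piRNA pathway, with Ddx4 (Vasa) at 12.7, 21.2 and 20.6 CPM in 129 and 34.9, 39.2 and 41.96 CPM in B6J (log2 difference 1.09, SE 0.20, adjusted p = 0.00229), Piwil2 at 0.84 and Tdrd1 at 0.84 (0.73 and not called without replicate 1 of B6J).

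The genes of the 2-cell-like state were lower in B6J as a group: 28 of 33 tested genes were lower and 1, Pramef8, was higher, with a median of -4.30 (-4.32 without replicate 1 of 129, with 32 of 35 lower). Limma-voom called 17 lower, and Pramef8 (0.37) was not called without replicate 2 (0.35) or 3 (0.37) of 129 or replicate 1 of B6J (0.32). Zscan4d, a zinc finger gene of telomere maintenance that marks this state, was at 1.17, 9.62 and 9.25 CPM in 129 and 0.227, 0.18 and 0.135 CPM in B6J (log2 difference -5.19, SE 0.76, adjusted p = 0.00061). Zscan4c was at 1.28, 6.46 and 7.38 CPM in 129 and 0.151, 0.0963 and 0.189 CPM in B6J (log2 difference -5.11, SE 0.73, adjusted p = 0.000514). Gm8300, an Eif1a-like gene of chromosome 12, was at 0.631, 5.04 and 6.68 CPM in 129 and 0.0503, 0.0963 and 0.135 CPM in B6J (log2 difference -5.44, SE 0.80, adjusted p = 0.000631). Within 129, replicate 1 was the lowest library for each of these, still above every B6J library. Tmem92, another marker of the state, was at 0.494, 2.52 and 2.33 CPM in 129 and 0.176, 0.193 and 0.0944 CPM in B6J (-3.5). Sp110, a nuclear body gene, was at 0.727, 2.38 and 2.03 CPM in 129 and 0.289, 0.217 and 0.0809 CPM in B6J (-3.11). Pramef12 was at 42.7, 41.5 and 47.5 CPM in 129 and 32.02, 24.1 and 25.8 CPM in B6J, a smaller difference (-0.68). In bulk RNA fewer cells of a kind and less RNA per cell cannot be told apart. The summed level of the list was 84.6, 139 and 151 CPM in 129 and 63.2 to 76.8 CPM in B6J, a sum in which genes such as Pramef12 weigh more than the Zscan4 genes.

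To set these differences beside promoter sequence, the 250 bases before the annotated start of each gene were taken from RefSeq (GRCm38.p6, the C57BL/6J reference; the 129 alleles were not used here). A window was found for 12608 of the 16627 tested genes. CG dinucleotides, the sites of DNA methylation, are in capitals in the following 4 windows. They were chosen from genes with strain differences described above, and hold from few to many such sites.
Xlr3a (chrX:73097096-73097345, minus strand): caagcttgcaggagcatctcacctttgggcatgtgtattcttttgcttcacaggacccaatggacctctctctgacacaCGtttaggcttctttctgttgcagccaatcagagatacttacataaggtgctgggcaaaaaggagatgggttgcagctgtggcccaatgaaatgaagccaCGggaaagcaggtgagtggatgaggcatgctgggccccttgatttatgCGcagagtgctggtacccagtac
Zscan4d (chr7:11166149-11166398, minus strand): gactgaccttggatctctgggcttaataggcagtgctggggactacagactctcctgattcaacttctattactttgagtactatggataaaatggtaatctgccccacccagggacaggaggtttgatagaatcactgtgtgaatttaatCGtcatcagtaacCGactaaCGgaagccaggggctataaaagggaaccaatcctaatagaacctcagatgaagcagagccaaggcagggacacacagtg
Zfp42 (chr8:43307010-43307259, minus strand): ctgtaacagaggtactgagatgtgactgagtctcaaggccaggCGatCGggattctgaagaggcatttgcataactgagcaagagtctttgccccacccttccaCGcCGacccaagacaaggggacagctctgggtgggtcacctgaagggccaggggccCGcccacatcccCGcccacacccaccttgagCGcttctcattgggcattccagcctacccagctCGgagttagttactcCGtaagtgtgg
Olig2 (chr16:91225300-91225549, plus strand): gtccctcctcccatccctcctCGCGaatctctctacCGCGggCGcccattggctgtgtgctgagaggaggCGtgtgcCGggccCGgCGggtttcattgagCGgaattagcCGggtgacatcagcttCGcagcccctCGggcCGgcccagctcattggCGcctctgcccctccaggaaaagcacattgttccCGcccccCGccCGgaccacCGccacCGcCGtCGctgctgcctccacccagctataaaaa

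Xlr3a and Zscan4d held 3 CG each, Zfp42 held 9 and Olig2, which was off in 129, held 22. For the counts that follow, a gene with several windows was taken at the window with the most CG. The median over tested genes was 15. Genes called lower in B6J by at least 1 log2 unit had a median of 6, and 253 of 617 such genes (41%) had fewer than 5, against 1706 of 12608 (13.5%) of all tested genes. Genes higher by at least 1 log2 unit had a median of 10, with 95 of 358 genes (26.5%) under 5, and genes not called had 16, with 12.5% under 5. Large differences in either direction were thus more often at genes with few CG, and all 13 matched genes of the lower 2-cell-like set were of that kind. The 22 lower germline genes had a median of 11. DNA methylation itself was not measured in these files.

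Interferon and viral sensing genes were lower in B6J in 19 of 43 cases, with a median of -0.36. By edgeR 0 were higher (3 at an unadjusted p under 0.05), by limma-voom 0 and by DESeq2 1. Within the guanylate-binding protein cluster on chromosome 3, Gbp2 was at 118, 193 and 186 CPM in 129 and 33.3, 35.6 and 50.02 CPM in B6J (log2 difference -2.06, SE 0.30, adjusted p = 0.000641). Gbp3 was at 10.99, 29.4 and 25.7 CPM in 129 and 1.71, 2.56 and 3.04 CPM in B6J (log2 difference -3.17, SE 0.38, adjusted p = 0.000144). Gbp7 was at 2.55, 9.02 and 5.55 CPM in 129 and 0.378, 0.95 and 0.836 CPM in B6J (-2.98). All 3 were detected in every B6J library, unlike their neighbour Gbp2b. Xaf1, an interferon-induced apoptosis gene, was at 16.96, 16.6 and 14.9 CPM in 129 and 2.89, 2.88 and 2.58 CPM in B6J (log2 difference -2.54, SE 0.10, adjusted p = 4.69e-08). Zbp1, a sensor of foreign nucleic acid, was at 2.91, 11.5 and 10.02 CPM in 129 and 1.46, 1.11 and 1.55 CPM in B6J (-2.57). The RNA sensor Ifih1 was at 2.42, 6.27 and 4.99 CPM in 129 and 1.18, 1.79 and 1.46 CPM in B6J (-1.62). The endosomal receptor Tlr3 was at 1.98, 4.24 and 3.5 CPM in 129 and 0.705, 0.975 and 1.05 CPM in B6J (-1.83). Irf1, a transcription factor of the response, was at 48.4, 89.8 and 86.7 CPM in 129 and 39.4, 35.5 and 38.3 CPM in B6J (-0.99). In most of them replicate 1 of 129 lay between the other 129 libraries and B6J, Xaf1 being an exception among those named.

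The interferon-stimulated response element, searched as GAAA, any 2 bases and GAAA, or on the other strand TTTC, any 2 bases and TTTC, is in capitals in the next 3 windows, shown because they belong to neighbouring genes of which 1 was undetected in B6J and the others reduced. Where a gene has several windows, the one with a match is printed.
Gbp2b (chr3:142594597-142594846, plus strand): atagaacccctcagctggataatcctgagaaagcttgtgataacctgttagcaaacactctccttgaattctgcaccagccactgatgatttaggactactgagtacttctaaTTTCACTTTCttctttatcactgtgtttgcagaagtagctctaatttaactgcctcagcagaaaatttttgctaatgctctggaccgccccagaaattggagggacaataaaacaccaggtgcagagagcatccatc
Gbp2 (chr3:142620413-142620662, plus strand): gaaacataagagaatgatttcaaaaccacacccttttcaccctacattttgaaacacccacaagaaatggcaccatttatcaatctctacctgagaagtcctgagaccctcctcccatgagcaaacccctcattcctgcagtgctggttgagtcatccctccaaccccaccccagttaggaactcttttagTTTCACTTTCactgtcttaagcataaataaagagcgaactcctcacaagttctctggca
Gbp3 (chr3:142559794-142560043, plus strand): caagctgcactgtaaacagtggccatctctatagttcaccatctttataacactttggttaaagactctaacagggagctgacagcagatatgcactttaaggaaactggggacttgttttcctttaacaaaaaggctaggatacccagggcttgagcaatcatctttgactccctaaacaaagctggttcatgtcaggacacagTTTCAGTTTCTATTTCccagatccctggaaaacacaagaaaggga

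Gbp2b and Gbp2 held 1 match each, with its position at -137 and -59 from the start, and Gbp3 held a pair of overlapping matches. The element was found in 978 of all 32851 windows (2.98%). Counted by gene, with a match in any of its windows, it was found in 397 of 12608 tested genes (3.15%). It was in 7 of the 17 matched interferon genes that were lower in B6J (41.2%) and in 8 of the 19 that were not (42.1%). The reference window of Gbp2b, the gene undetected in B6J, thus held the element, and its presence did not separate the lower interferon genes from the rest of their list.

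Of 23 genes of MHC class I antigen presentation 9 were lower and 1 higher, with a median of -0.32. Psmb8, an immunoproteasome subunit, was at 11.05, 25.9 and 23.6 CPM in 129 and 3.2, 2.55 and 3.6 CPM in B6J (log2 difference -2.69, SE 0.35, adjusted p = 0.000281). Tapbp, which loads peptide onto class I molecules, was at 71.99, 87.7 and 87.4 CPM in 129 and 39.9, 36.9 and 40.1 CPM in B6J (log2 difference -1.08, SE 0.09, adjusted p = 8.34e-06). The trimming peptidase Erap1 was at 29.9, 52.1 and 51.5 CPM in 129 and 11.8, 13.8 and 17.8 CPM in B6J (-1.62). The peptide transporter Tap2 was at 8.96, 17.2 and 15.7 CPM in 129 and 5.52, 4.92 and 5.34 CPM in B6J (-1.41). The proteasome activator Psme2 was at 83.3, 120 and 121 CPM in 129 and 52.1, 41.9 and 50.4 CPM in B6J (-1.17). H2-T24, a non-classical class I gene, was the higher one, at 1.14, 0.952 and 0.827 CPM in 129 and 3.76, 3.26 and 3.28 CPM in B6J (1.82). The class I heavy chain H2-K1 was at 40.99, 70.1 and 68.02 CPM in 129 and 51.9, 50.6 and 50.2 CPM in B6J and its light chain B2m at 147, 81.2 and 77.7 CPM in 129 and 85.5, 110 and 94.7 CPM in B6J; neither was called, though H2-K1 was called lower (-0.44) without replicate 1 of 129 and B2m lower (-0.29) with a fibroblast score as covariate. Class I genes are polymorphic between these strains and close copies share reads, so their counts are uncertain.

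Primitive streak and mesoderm genes were lower in B6J in 13 of 23 cases and higher in 4, with a median of -1.34 (-1.48 without replicate 1 of 129, with the same numbers called). T (Brachyury), the streak's defining factor, was at 93.5, 137 and 131 CPM in 129 and 17.3, 30.03 and 39.5 CPM in B6J (log2 difference -2.06, SE 0.40, adjusted p = 0.00376). Eomes, a T-box factor of mesendoderm, was at 27.4, 33.5 and 33.2 CPM in 129 and 7.43, 8.64 and 10.4 CPM in B6J (log2 difference -1.83, SE 0.16, adjusted p = 1.4e-05). Mixl1, a homeobox factor of mesendoderm, was at 6.82, 12.8 and 11.9 CPM in 129 and 1.33, 1.06 and 1.15 CPM in B6J (log2 difference -3.16, SE 0.30, adjusted p = 2.79e-05). Lhx1, a node and anterior endoderm factor, was at 14.1, 22.2 and 24.1 CPM in 129 and 0.315, 0.409 and 0.607 CPM in B6J (log2 difference -5.5, SE 0.43, adjusted p = 5.55e-06). The peptide hormone Apln was at 17.4, 30.6 and 29.7 CPM in 129 and 2.49, 3.78 and 4.86 CPM in B6J (-2.8). Its receptor Aplnr was at 4.56, 11.3 and 10.9 CPM in 129 and 0.126, 0.193 and 0.54 CPM in B6J (-4.97; -5.79 without replicate 3 of B6J). The organiser gene Gsc was at 2.52, 3.91 and 3.87 CPM in 129 and 0.365, 0.313 and 0.162 CPM in B6J (-3.6). Every B6J library lay below every 129 library for these 7 genes. The strains did not overlap, in either direction, for 36.9% of all tested genes. The caudal homeobox gene Cdx4 was at 0.247, 0.882 and 0.655 CPM in 129 and 4.23, 3.38 and 5.75 CPM in B6J (log2 difference 2.9, SE 0.43, adjusted p = 0.000646). Its relative Cdx1 was at 1.7, 4.31 and 4.18 CPM in 129 and 8.1, 9.35 and 9.74 CPM in B6J (1.42). Both Cdx genes were higher in B6J.

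Primitive endoderm genes showed 11 of 23 lower and 2 higher, with a median of -2.85, a value set by 1 library. The number lower was 3 with DESeq2, 2 with limma-voom or in a fit of the 6 DMSO libraries alone, 6 with the replicate number as a block and 20 with a fibroblast score as covariate. DESeq2 gave no adjusted p for Lama1, Gata6, Hnf4a and Cubn, so its count leaves these untested. Lama1, a laminin of basement membrane, was at 2370, 66.8 and 70.6 CPM in 129 and 52.2, 39.5 and 39.8 CPM in B6J, and Gata6, the lineage's lead factor, at 33.9, 3.18 and 2.96 CPM in 129 and 1.71, 1.78 and 1.89 CPM in B6J. Their log2 differences of -4.25 and -2.9 became -0.64 and -0.77 without replicate 1 of 129. The median of the list was then 0.01, with 6 lower and 3 higher. Lama1 and Gata6 were still called then, and each call ended on leaving out any single B6J library (-4.18 to -4.39 for Lama1, -2.86 to -2.93 for Gata6). Hnf4a, a hepatic and endoderm nuclear receptor, was at 8.78, 1.34 and 1.36 CPM in 129 and 0.0378, 0.0722 and 0.027 CPM in B6J (-6.32) and remained called at -4.82 without that library. Cubn, an endocytic receptor, went from -3.07 to -0.98 and was still called. The call of Cubn ended on leaving out any single B6J library (-3.01 to -3.17). Apoe, an apolipoprotein, was higher in B6J (214, 213 and 217 CPM in 129, 590, 433 and 408 CPM in B6J, log2 difference 1.15, SE 0.15, adjusted p = 0.000226).

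Other cell types were looked for in the same way. The 25 fibroblast markers, which include collagens that primitive endoderm and feeder cells also make, summed to 12380, 6891 and 7068 CPM in 129 and to 8996 to 10350 CPM in B6J, and all 25 were tested; 0 were called either way by edgeR, DESeq2 and limma-voom (0 at an unadjusted p under 0.05), and 9 were called higher without replicate 1 of 129. Col1a1, a fibrillar collagen, was at 1140, 602 and 634 CPM in 129 and 945, 1051 and 995 CPM in B6J. Endothelial and blood markers summed to 538, 170 and 179 CPM in 129 and to 166 to 172 CPM in B6J. With a fibroblast score as covariate 4949 genes were called in place of 3468, and of the genes named here B2m (-0.29), Dnmt3b (0.28), Uhrf1 (0.23) and Klf4 (0.17) gained a call. The part of fibroblast, blood or endoderm RNA in the differences described here was not tested beyond these values and those without that library. Of 16 trophoblast genes 7 were higher in B6J and 2 lower, with a median of 0.40. Without replicate 1 of 129, 10 of 17 were higher and 2 lower, with a median of 0.78. The summed level of the list was 1461, 713 and 692 CPM in 129 and 875 to 1083 CPM in B6J. Plet1 was at 2.04, 1.34 and 1.67 CPM in 129 and 8.71, 6.99 and 9.16 CPM in B6J (log2 difference 2.3, SE 0.17, adjusted p = 3.69e-06). The simple keratin Krt7 was at 3.18, 2.6 and 3.09 CPM in 129 and 15.2, 8.43 and 11.6 CPM in B6J (1.99). The AP-2 factor Tfap2c was at 42.2, 44.2 and 46.6 CPM in 129 and 87.4, 73.9 and 72.02 CPM in B6J (0.81). Esx1, a placental homeobox gene, was at 0.714, 0.616 and 0.25 CPM in 129 and 6.12, 3.67 and 4.34 CPM in B6J (3.15). Gata3, which directs trophectoderm, was at 0.6999, 0.7001 and 0.453 CPM in 129 and 1.59, 1.61 and 1.71 CPM in B6J (1.4).

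**Figure D3:**
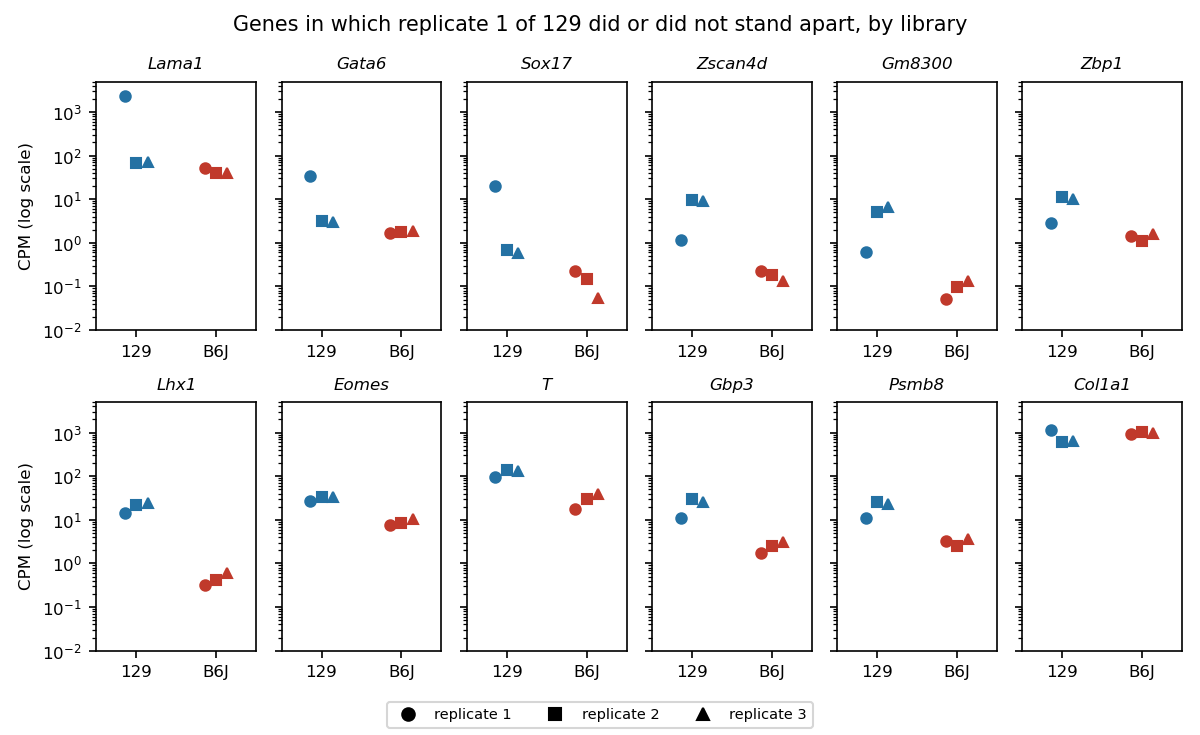
CPM (log scale) in each DMSO library for 12 genes, blue for 129 and red for B6J, with circles for replicate 1, squares for 2 and triangles for 3. The circle of 129 lies far above the other libraries for Lama1, Gata6 and Sox17, below the other 129 libraries for Zscan4d, Gm8300, Zbp1, Gbp3 and Psmb8, and below but nearer to them for Lhx1, Eomes and T.

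Signalling genes moved in both directions. Of 29 MEK/ERK feedback genes and targets 6 were higher and 2 lower, with a median of 0.16. Egr1, an immediate early factor, was at 190, 307 and 288 CPM in 129 and 141, 148 and 157 CPM in B6J (log2 difference -0.81, SE 0.19, adjusted p = 0.0102). Its relative Egr3 was at 5.41, 7.27 and 4.81 CPM in 129 and 2.64, 3.24 and 2.7 CPM in B6J (-1.03). Both were lower in B6J. Of the 6 higher members, Dusp7, a phosphatase that opposes MAP kinases, was at 14.9, 14.97 and 13.9 CPM in 129 and 26.6, 21.8 and 21.9 CPM in B6J (0.68). Dusp1, another such phosphatase, was at 106, 107 and 98.4 CPM in 129 and 139, 141 and 141 CPM in B6J (0.44). Cyclin D1 (Ccnd1) was higher (0.39). Of 16 FGF ligands and receptors 2 were higher and 5 lower, with a median of -0.62. Without replicate 1 of 129 the median was -0.19, with 3 higher and 6 lower. Fgf8, a streak ligand, was at 20.9, 39.5 and 36.98 CPM in 129 and 5.5, 7.03 and 9.32 CPM in B6J (-2.16). Fgf15 was at 8.54, 11.3 and 10.8 CPM in 129 and 4.38, 4.74 and 4.92 CPM in B6J (-1.12). Both were lower in B6J. The 2 higher members were the ligand Fgf4 (0.82) and the receptor Fgfr1, at 144, 159 and 157 CPM in 129 and 193, 192 and 194 CPM in B6J (0.33).

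In the LIF pathway 3 of 15 genes were higher and 2 lower. Pim1, a kinase induced by STAT3, was at 82.6, 118 and 122 CPM in 129 and 226, 204 and 200 CPM in B6J (log2 difference 0.96, SE 0.13, adjusted p = 0.000378). The receptor chain Lifr was at 90.4, 62.96 and 60.7 CPM in 129 and 44.4, 46.4 and 44.2 CPM in B6J (-0.66). The call of Lifr was lost with both replicates 1 left out. Of 25 Wnt ligands and targets 5 were higher and 6 lower. Wnt3, the streak ligand, was at 24.02, 34.5 and 32.03 CPM in 129 and 9.19, 11.2 and 15.4 CPM in B6J (-1.34). Sp5, a direct target of beta-catenin, was at 12.9, 18.4 and 17.7 CPM in 129 and 4.63, 4.02 and 4.13 CPM in B6J (-1.94). The feedback gene Axin2 was at 35.4, 52.96 and 47.3 CPM in 129 and 22.7, 21.99 and 24.1 CPM in B6J (-0.98). All 3 were lower in B6J.

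Genes of ATF4 and amino acid stress were higher in B6J in 14 of 25 cases and lower in 1, with a median of 0.42 (0.36 and 12 higher without replicate 1 of 129). Atf4, the transcription factor that drives them, was at 274, 251 and 253 CPM in 129 and 562, 519 and 511 CPM in B6J (log2 difference 1.03, SE 0.06, adjusted p = 8.22e-07). Cth, which makes cysteine, was at 114, 114 and 119 CPM in 129 and 195, 175 and 181 CPM in B6J (log2 difference 0.67, SE 0.07, adjusted p = 4.02e-05). The amino acid transporter Slc7a5 was at 281, 321 and 323 CPM in 129 and 529, 447 and 471 CPM in B6J (0.64). The folate enzyme Mthfd2 was at 132, 136 and 140 CPM in 129 and 229, 199 and 194 CPM in B6J (0.61). Trib3, a pseudokinase that feeds back on Atf4, was at 34.98, 44.8 and 43.004 CPM in 129 and 74.5, 62.4 and 60.6 CPM in B6J (0.69). The cystine transporter Slc7a11 was the lower one, at 11.6, 11.4 and 11.9 CPM in 129 and 3.6, 6.61 and 6.71 CPM in B6J (-1.05).

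Metabolic and translation genes differed by smaller amounts. Of 25 cholesterol synthesis genes 9 were higher and 2 lower (median 0.29); with replicate 1 of B6J left out 5 were higher. Insig1, which restrains the pathway, was at 74.95, 75.97 and 75.9 CPM in 129 and 138, 116 and 110 CPM in B6J (0.68). Stard4, a sterol carrier, was at 57.9, 60.2 and 58.5 CPM in 129 and 36.1, 32.4 and 34.5 CPM in B6J (-0.78), and was lower in B6J. Of 48 cytosolic ribosomal protein genes 11 were higher by edgeR (22.9% called, against 20.9% of all tested genes). By edgeR, DESeq2 and limma-voom 0 were lower (median 0.12, 0 lower at an unadjusted p under 0.05). With both replicates 1 left out the median was 0.02 and 3 were lower. Rpl29 was at 127, 118 and 118 CPM in 129 and 376, 326 and 324 CPM in B6J (log2 difference 1.5, SE 0.09, adjusted p = 5.07e-07). Rpl34 was at 154, 153 and 154 CPM in 129 and 349, 310 and 301 CPM in B6J (1.06). Rplp0 was at 1168, 1132 and 1178 CPM in 129 and 2950, 2484 and 2437 CPM in B6J (log2 difference 1.18, SE 0.10, adjusted p = 9.34e-06). Such genes have many processed copies, so their counts are uncertain. Of 25 glycolysis genes 7 were higher and 3 lower, with the platelet-type phosphofructokinase Pfkp at 164, 210 and 210 CPM in 129 and 123, 114 and 103 CPM in B6J (-0.78) lower. Respiratory chain genes had 5 of 46 higher and 2 lower (15.2% called, against 20.9% of all tested genes). Among the higher was Cox7a2l, a supercomplex factor that C57BL/6J carries in a short form, at 72.03, 69.2 and 70.6 CPM in 129 and 131, 111 and 112 CPM in B6J (0.74).

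The called genes with the most reads were all higher in B6J. Slc2a3, a glucose transporter, was at 1155, 1209 and 1261 CPM in 129 and 1989, 1611 and 1800 CPM in B6J (log2 difference 0.58, SE 0.08, adjusted p = 0.000608). Hspa8, the constitutive HSP70 chaperone, was at 1930, 2054 and 2259 CPM in 129 and 3992, 3460 and 3521 CPM in B6J (log2 difference 0.81, SE 0.08, adjusted p = 3.08e-05). Beta-actin (Actb), often taken as a constant reference, was at 3014, 2824 and 2929 CPM in 129 and 3759, 3419 and 3515 CPM in B6J (0.29). The pyruvate kinase Pkm was at 2762, 2875 and 2913 CPM in 129 and 3973, 3423 and 3363 CPM in B6J (0.33). Rps2 differed by 0.47, Rps3 by 0.28 and the ubiquitin ligase Nedd4 by 0.25. The call of Rps3 ended without replicate 1 (0.25) or 2 (0.27) of 129 or replicate 1 of B6J (0.18), and that of Nedd4 without replicate 2 of 129 (0.25) or replicate 2 (0.25) or 3 (0.22) of B6J.

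Of 14 tested genes with published alleles in these strains, 3 were higher and 6 lower in B6J, Gbp2b among the latter. Ide, the insulin-degrading enzyme, was at 210, 216 and 232 CPM in 129 and 548, 499 and 518 CPM in B6J (log2 difference 1.25, SE 0.08, adjusted p = 1.43e-06). Glo1, a glyoxalase that lies in a duplication carried by some strains, was at 178, 242 and 259 CPM in 129 and 84.6, 76.7 and 73.6 CPM in B6J (log2 difference -1.53, SE 0.12, adjusted p = 6.29e-06). Wdfy1, an endosomal adaptor, was at 58.2, 48.1 and 47.98 CPM in 129 and 9.19, 11.6 and 11.8 CPM in B6J (log2 difference -2.24, SE 0.12, adjusted p = 3.89e-07). Ide was thus higher in every B6J library, and the other 2 lower. Nlrp12, an inflammasome gene, was at 7.59, 9.19 and 9.5 CPM in 129 and 3.03, 4.34 and 3.63 CPM in B6J (-1.25). Slc11a1, a phagosomal metal transporter, was at 4.38, 2.83 and 2.28 CPM in 129 and 1.13, 0.926 and 0.729 CPM in B6J (-1.76). Aen, a p53-induced nuclease, was lower (130, 119 and 121 CPM against 67.7, 67.7 and 68.7 CPM, -0.86) and Pmaip1 (Noxa) higher (102, 94.1 and 90.5 CPM against 138, 198 and 213 CPM, 0.94), in a list of p53 targets with 7 of 22 higher and 2 lower.

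**Figure D4:**
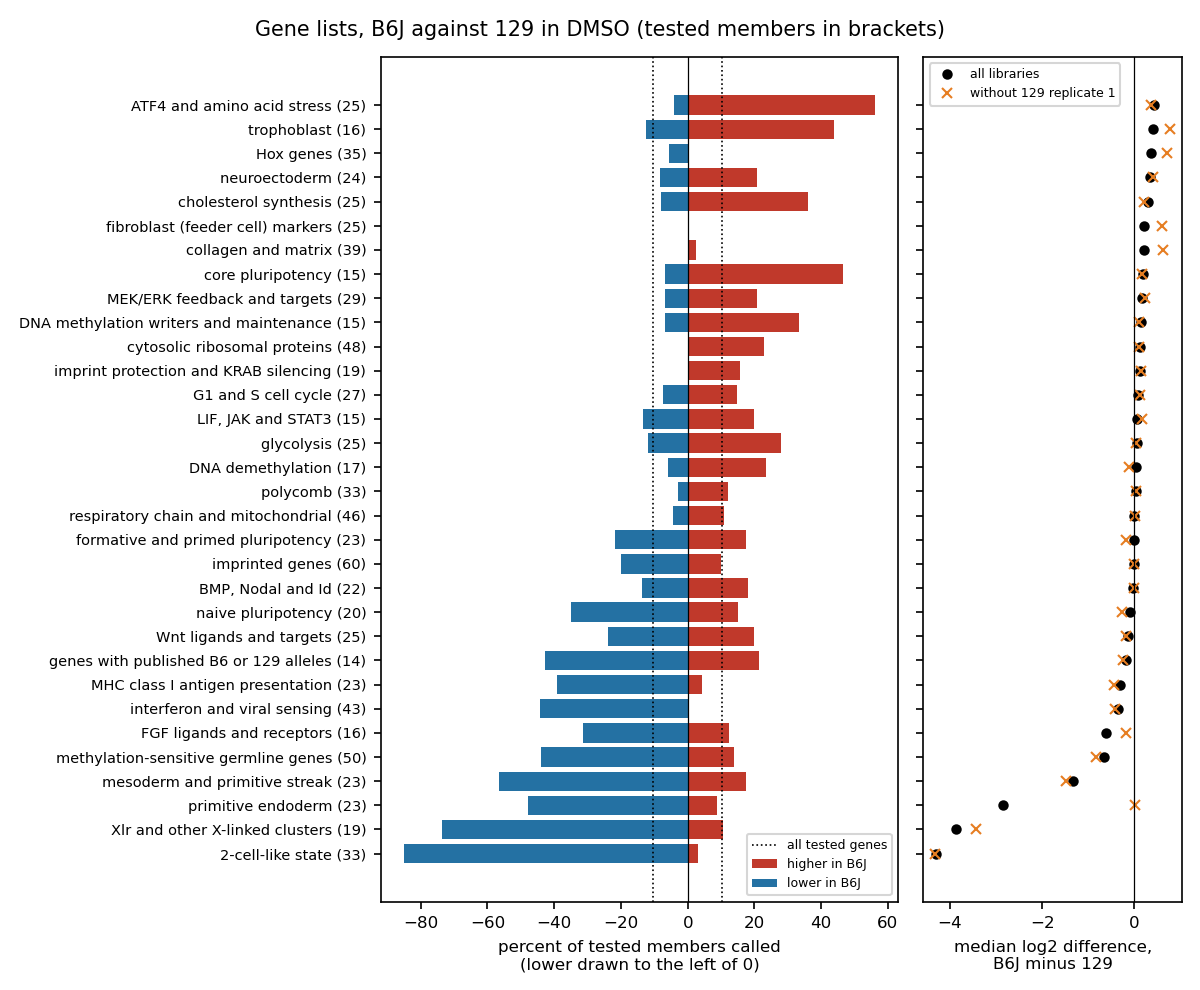
Left, the percent of tested members of each gene list called higher (red, right of 0) or lower (blue, left of 0) in B6J, with dotted lines at the 10.4% and 10.5% of all tested genes; right, the median log2 difference with all libraries (dots) and without replicate 1 of 129 (crosses). The 2-cell-like genes (28 of 33 lower) and the X-linked clusters (14 of 19 lower) lie furthest below 0, and the cross of the primitive endoderm list sits at 0.01 while its dot is at -2.85.

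The strain difference was then measured again in the 6 inhibitor libraries, which share no library with the 6 in DMSO. Both contrasts came from the same fit and share its estimate of spread. There 3053 genes were called (18.4%), 1479 higher (8.9%) and 1574 lower (9.47%) in B6J. Of the 3468 genes called in DMSO, 3160 (91.1%) had the same sign in the inhibitor, and 1757 were called in the same direction, which is 50.7% of the DMSO calls and 57.5% of the inhibitor calls. The median size of the log2 difference over the DMSO calls was 0.77 in DMSO and 0.49 in the inhibitor. Choosing genes by their DMSO calls favours a larger size in DMSO. Zfp42 (-2.84 in the inhibitor), Olig2 (9.6), Crxos (-7.32), Ide (1.2) and Tdg (1.51) had values near those in DMSO. The test of the difference between the 2 strain contrasts called 246 genes (1.48%), of which 172 were called in DMSO, and for 130 of these the difference was smaller in size in the inhibitor. These 172 were chosen by their DMSO calls, which favours a smaller size in other libraries, so no effect of the inhibitor is read from that count.

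Members of lists described above were among the genes that differed, 6 of 23 streak genes, 5 of 33 2-cell-like genes and 4 of 23 antigen presentation genes. For the streak genes Lhx1, Mixl1 and Gsc the inhibitor values were -0.44, -0.23 and -0.33 (adjusted p of the difference 0.00454, 0.00854 and 0.00736). Their CPM in the inhibitor are not given here, so these values do not show at what level the strains were compared. Cer1, of the same list, was at no more than 0.042 CPM in any inhibitor library. Eomes turned from -1.83 to 0.58 (adjusted p of the difference 0.00115) and Cdx4 from 2.9 to -1.87 (adjusted p of the difference 0.00572). Zscan4c and Zscan4d stood at -0.37 and -0.48 in the inhibitor (adjusted p of the difference 0.0337 and 0.0364), and 5 of 33 2-cell-like genes were called lower and 3 higher there. Gadd45a was at -0.14 and Setdb1 at -0.42, against 1.05 and 0.38 in DMSO (adjusted p of the difference 0.00572 and 0.00264). In the antigen presentation list Tapbp, Psme2, Erap1 and Tap2 had inhibitor values of -0.22, -0.24, -0.07 and 0.09, each nearer 0 than in DMSO. Xlr3a was at -4.16 in the inhibitor, and Dppa3 at 1.33, both called there. In all 30 genes were called in opposite directions in DMSO and the inhibitor, among them Rhox9, a homeobox gene of the X at 0.64 and -1.53.

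**Figure D5:**
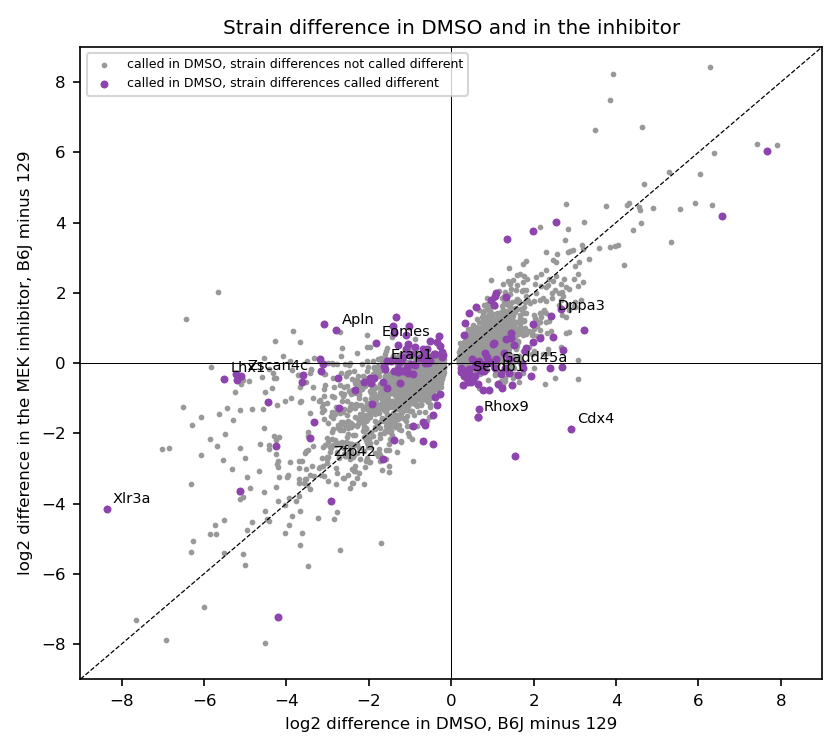
Log2 difference between B6J and 129 in the inhibitor (vertical axis) against that in DMSO (horizontal) for genes called in DMSO with more than 3 counts in each strain; purple marks genes for which the 2 differences were called different, and the dashed line is equality (1 gene lies outside the axes). Most points have the same sign on both axes, and Zfp42 lies near the line. Lhx1, Zscan4c and Erap1 lie near 0 in the inhibitor, and Cdx4 and Rhox9 lie in the lower right quadrant.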

How the data were processed

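Messenger RNA libraries of 12 samples were made with a stranded kit, per the labels' protocols. The authors deposited 1 table of raw read counts per gene, whole numbers without normalization. STAR 2.7.10, SAMtools, HTSeq 0.6.1p1 and DESeq are named in the submitters' processing notes, with the build GRCm38; the treatment of strand and of reads that match several places is not given in the sources used here. Of 26742 genes, 26725 matched the GENCODE annotation of GRCm38, which gave positions; promoter windows were RefSeq windows of GRCm38.p6. Even values made up 70.5 to 72.6% of the counts between 1 and 20 and 52.1 to 54.6% of those between 101 and 1000 in the 6 DMSO libraries. Whether read pairs were counted as 2 reads was not tested, and an alternative halved the counts. The table has 13 mitochondrial genes, with 0 counts.

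Counts were fitted in edgeR 4.0.16 (R 4.3.3) with means for the 4 groups of 3 libraries, TMM scaling and the quasi-likelihood test, over 16627 genes kept by edgeR's filter (minimum count 10, total 15). The strain contrast was taken within DMSO, within the inhibitor, and as the difference between these. On simulated counts for these 16627 genes, 200 were changed between the strains in both treatments. In the DMSO contrast 60 of 100 were recovered at a log2 difference of 1 and 85 of 100 at 2, with 5 unchanged genes called. The simulation had no library set apart like replicate 1 and fewer changed genes than were called here. Its rates may therefore not hold for the real counts. Alternatives used DESeq2 1.42.0, limma 3.58.1 (voom), other scaling and filters, the 6 DMSO libraries alone, a replicate block, a fibroblast score as covariate, and libraries left out.

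Genes named were the 12 largest differences in each direction (5 CPM or more in the higher strain, no overlap, provisional names and pseudogenes left out), the 8 called genes with the most reads, list members, the 8 longest runs, and genes silent in 1 strain. Others are said to be chosen after their values were seen. The members and lists were chosen with earlier results of these data known. Replicates with the same number did not deviate together (r from -0.07 to 0.01), so the numbers were not taken as pairs. Intervals and floors cover counting error only.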

Additional observations from a re-analysis of the deposited data

Results flagged for a closer look

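For 30 of the genes named above, the test of the difference between the 2 strain contrasts (edgeR, adjusted p under 0.05) found that B6J minus 129 in the inhibitor differed from B6J minus 129 in DMSO. The values below are the inhibitor difference minus the DMSO difference on the log2 scale. For 25 of them the strain difference was smaller in size in the inhibitor, and for 13 its sign was opposite there. Since 181 of the 197 genes named, Nnt not counted, were called in DMSO, a smaller size in other libraries was favoured in advance.

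Among genes lower in B6J in DMSO, the value was 5.06 for Lhx1, 3.73 for Apln, 3.28 for Gsc, 2.92 for Mixl1 and 2.41 for Eomes, all of the primitive streak list. In the 2-cell-like list it was 4.74 for Zscan4c and 4.72 for Zscan4d, whereas Pramef12, at -1.55, differed more between strains in the inhibitor. Xlr3a stood at 4.21. In antigen presentation the values were 1.55 for Erap1, 1.49 for Tap2, 0.93 for Psme2 and 0.86 for Tapbp. Egr3 had 2.08, Axin2 0.95, and Uhrf2 and Nes 0.57 each.

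Among genes higher in B6J in DMSO, the value was -4.78 for Cdx4, -2.38 for Serpina3m, -2.18 for Rhox6 and -2.17 for Rhox9. It was -1.68 for Gata3 and -1.38 for Krt7 of the trophoblast list, and -1.61 for Gm42047. Gadd45a had -1.19, Dppa3 -1.10 and Setdb1 -0.80. In the ATF4 list it was -0.89 for Trib3, -0.62 for Cth and -0.47 for Atf4.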

How the results depend on the processing

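Of 197 genes named, Nnt not counted, 181 were called. Of these 155 kept their call and direction in every one of the 16 alternatives that gave a value, and 0 reversed. The 3468 genes differing in DMSO became 2247 in a fit of the 6 DMSO libraries alone, with 1058 higher in B6J, and lay between 2569 and 4056 when 1 library was left out. Counts under the other alternatives were within 1.5 times of these. The 246 genes whose strain difference changed with the inhibitor were the least stable: 798 with DESeq2, 163 with limma-voom, 791 with a fibroblast covariate, 617 with both DMSO libraries numbered 1 left out, and from 98 (without replicate 2 of 129) to 586 (without replicate 1 of 129) with 1 library left out. The cause was not tested. With the replicate number as a block, 3024 genes differed in DMSO and 156 in the test against the inhibitor; the numbers did not pair the samples (r of -0.06, 0.01 and -0.07, each 129 library correlating best with another number). Among the lists, for example, the fibroblast covariate raised the members called higher in cholesterol synthesis from 9 to 17, in methylation writers from 5 to 8 and in naive pluripotency from 3 to 6, and the fit of the 6 DMSO libraries alone lowered those of cholesterol synthesis to 5, of p53 targets from 7 to 2 and of neuroectoderm from 5 to 2. Depth limits the genes with 0 counts in a strain, whose folds are given as bounds.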
